A study of Mus musculus with 8 samples.

Results

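The 10 genes described here are the core of the mitochondrial cell death switch and its best known transcriptional input, the tumour suppressor p53. They are the effectors Bax and Bak1, the pro-survival genes Bcl2, Bcl2l1 and Mcl1, the BH3-only genes Bbc3, Pmaip1 and Bid, and the p53 targets Cdkn1a and Mdm2. They were chosen by gene name, by a rule that used no measured value but with earlier results of these data known, and each matched exactly 1 of the 55487 genes in the count tables. All 10 were among the 13400 genes kept for testing.

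Liver RNA was sequenced from 4 Control mice (mice 154, 159, 181 and 193) and 4 Mc1r LKO mice (mice 141, 156, 157 and 182), with each library made from the liver of a single mouse. In Mc1r LKO mice, a Cre recombinase driven by the albumin promoter (Alb-Cre) removes the floxed gene for the melanocortin 1 receptor, a G protein-coupled receptor, from hepatocytes, whereas Control mice carry the same floxed alleles (Mc1rfl/fl) without Cre. Both genotypes were males that started a Western diet at 8 weeks of age and stayed on it for 12 weeks. Alb-Cre targets hepatocytes, and the state of the receptor gene in the other cells of the liver was not measured here. Whole tissue was sequenced, so fewer cells of a type and less RNA per cell cannot be told apart in these values.

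Proteins of the BCL2 family decide whether the outer mitochondrial membrane is breached, which releases cytochrome c and activates caspases. BAX and BAK form the pore, BCL2, BCL-XL and MCL1 hold them in check, and BH3-only proteins such as PUMA, NOXA and BID relieve that restraint or activate the pore formers directly. Hepatocytes depend on BCL-XL and MCL1 for survival, and p53 raises transcription of several members of the family as well as of the cell cycle inhibitor p21 and of its own negative regulator MDM2. The comparison asks whether loss of the receptor from hepatocytes was accompanied by a change in the transcripts of this switch.

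The libraries held 10773151 to 24763375 counts assigned to genes. Mc1r itself had 0 counts in all 8 livers, so the genotype labels could not be checked on the targeted transcript. The hepatocyte markers Alb, Apoa1, Ttr, Cps1 and Cyp2e1 summed to 73747 to 90710 CPM (counts divided by the library total) in Control and 78818 to 93996 CPM in Mc1r LKO livers. Mc1r LKO mouse 182 lay apart from the other libraries on the first principal component of log2 CPM, which held 37.6% of the variance, with a score of 59.28 against scores of -28.24 to 27.75. Control mouse 159, the smallest library, lay apart on the second principal component, which held 16.9%, with 40.54 against -22.01 to 8.4. The 6 Kupffer cell markers summed to 219 to 513 CPM in Control and 144 to 335 CPM in Mc1r LKO livers, with the highest sum in Control mouse 159. Although 0 of 6 passed the test described below, all 6 had a lower fitted level in Mc1r LKO than in Control livers. Their log2 fold changes ran from -0.57 to -0.17, with a median of -0.42 against -0.01 for all genes tested. Of the 7 lymphocyte markers, 5 fell under the filter on low counts, Cd79b was at most 2.696 CPM, and the remaining marker, Ighm, ranged from 18.7 to 113 CPM. The part of these cell types in the values of the 10 genes was not tested.

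None of the 10 genes met any of the rules for a difference between the genotypes. With edgeR's quasi-likelihood test, 0 of 10 had an adjusted p under 0.05, where 0% of all 13400 genes did, and 0 of 10 had an unadjusted p under 0.05, where 6.72% of all genes did. DESeq2 gave an adjusted p to 8 members, not to Bcl2 and Pmaip1, and it was under 0.05 for 0 of 8, against 0.147% of all genes with an adjusted p. In limma-voom it was under 0.05 for 0 of 10 members and 0% of all genes. A looser rule, a log2 fold change of 0.25 or more in either direction at an unadjusted p under 0.05, was met by 0 of 10 members and by 5.31% of all genes. The genotypes did not separate fully for any member, whereas 4.16% of all genes had no overlap between the 4 Control and the 4 Mc1r LKO values. Since 4 livers per genotype leave wide intervals, each member's values, fold change and 95% interval are given below. CPM values are scaled by the trimmed mean of M-values (TMM), are listed for Control mice 154, 159, 181 and 193 and then for Mc1r LKO mice 141, 156, 157 and 182, and fold changes are Mc1r LKO against Control.

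**Figure D1:**
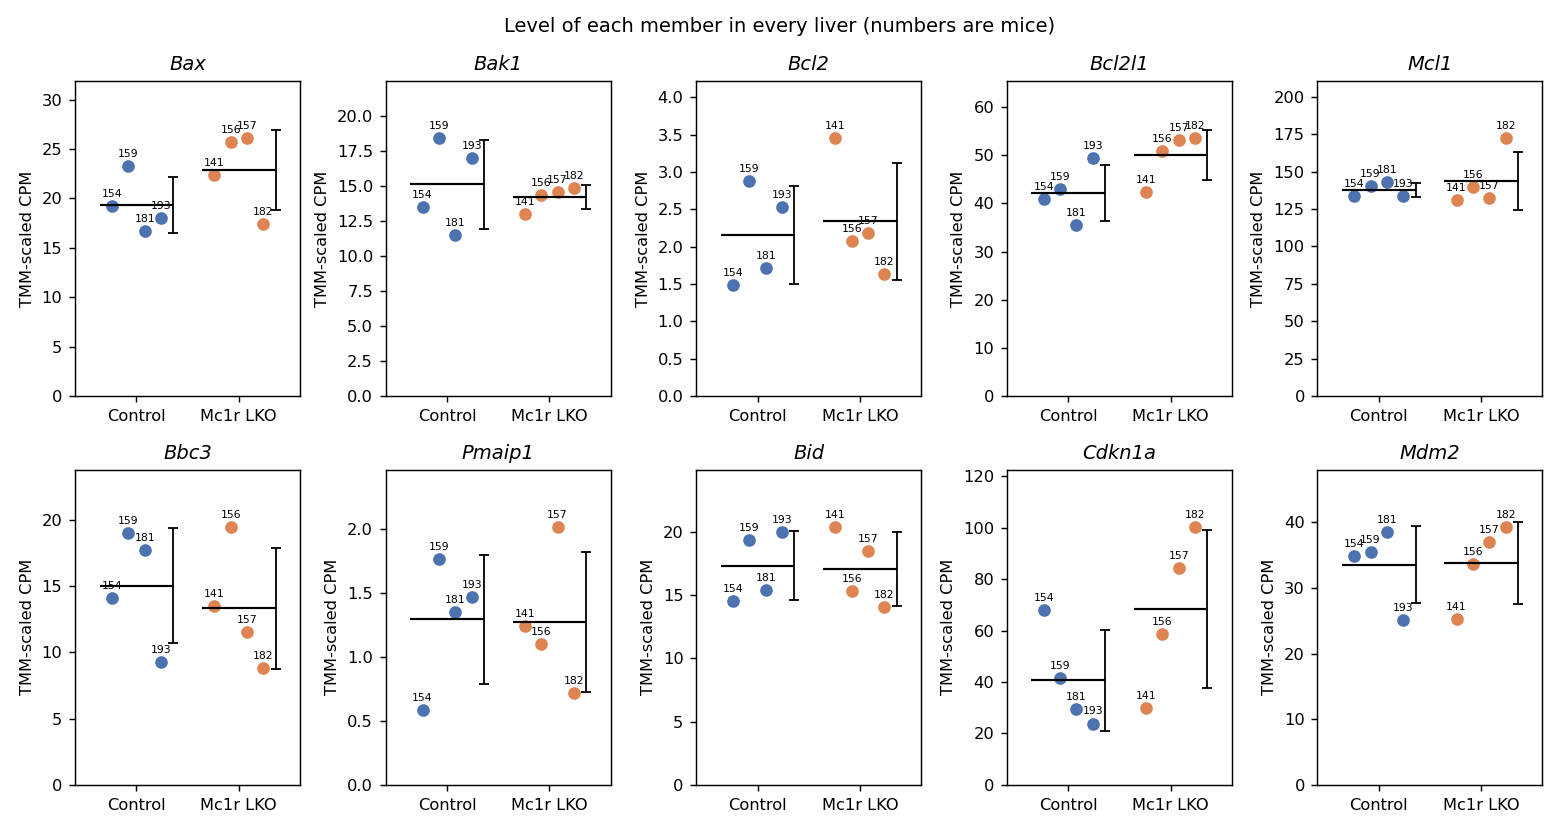
TMM-scaled CPM (vertical axes, starting at 0) of the 10 genes in each liver, with Control in blue, Mc1r LKO in orange, mouse numbers above the points, horizontal lines for the mean and vertical bars for the SD of 4 livers. The genotypes overlap in every panel, and Cdkn1a shows the widest range, from 23.9 to 100.5 CPM.

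Among the effectors, the mean of Bax was higher and that of Bak1 was slightly lower in Mc1r LKO livers, and both differences lay within the spread between mice. Bax (chr7:45461697-45466898, minus strand, GRCm38) measured 19.2, 23.3, 16.7 and 18.0 CPM in Control livers and 22.3, 25.7, 26.1 and 17.4 CPM in Mc1r LKO livers. Mc1r LKO mice 156 and 157 were above all Control mice, while mouse 182 was below 3 of the 4. Control livers averaged 19.3 ± 2.86 CPM (SD, n = 4) and Mc1r LKO livers 22.9 ± 4.06 CPM (SD, n = 4), a log2 fold change of 0.25 ± 0.15 (SE) with a 95% interval of -0.08 to 0.58 (edgeR quasi-likelihood, adjusted p = 0.821). Without Control mouse 159 the log2 fold change was 0.36 (edgeR, adjusted p = 0.704), and without Mc1r LKO mouse 182 it was 0.37 (edgeR, adjusted p = 0.574), and in both fits Bax met the looser rule. The lowest value of the 8 fits that left out a liver was 0.19, without Mc1r LKO mouse 157, where Bax did not meet the rule. In its annotation, 192 exon bases of Bax are shared on the same strand with the gene model Gm45808, and reads from that stretch cannot be assigned with certainty.

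Bak1 (chr17:27019810-27029009, minus strand), which encodes the second pore former, measured 13.4, 18.4, 11.5 and 17.0 CPM in Control and 13, 14.4, 14.6 and 14.9 CPM in Mc1r LKO livers. The Mc1r LKO values sat close together inside the Control range, with an SD of 0.830 CPM against 3.17 CPM in Control. The difference in spread was not tested. The log2 fold change was -0.08 ± 0.15 (SE), with a 95% interval of -0.41 to 0.25 (edgeR, adjusted p = 0.944).

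The pro-survival transcripts differed widely in level from each other, and none passed the test between genotypes. Mcl1 (chr3:95658788-95663176, plus strand), which encodes a short-lived BCL2 relative that sequesters BAK and BH3-only proteins, measured 133.9, 140.2, 142.9 and 133.8 CPM in Control and 130.7, 139.6, 132.5 and 172.5 CPM in Mc1r LKO livers. Apart from mouse 182, all livers lay between 130.7 and 142.9 CPM. Its log2 fold change was 0.06 ± 0.10 (SE) with a 95% interval of -0.16 to 0.29, or 0.892-fold to 1.224-fold (edgeR, adjusted p = 0.938), the narrowest interval among the members. Without mouse 182 it was -0.03.

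Bcl2l1 (chr2:152780668-152831728, minus strand), the gene for BCL-XL, measured 40.9, 42.9, 35.4 and 49.3 CPM in Control and 42.4, 50.9, 53.2 and 53.6 CPM in Mc1r LKO livers. Mice 156, 157 and 182 were above all Control livers, and mouse 141 fell within their range. Control livers averaged 42.2 ± 5.74 CPM (SD, n = 4) and Mc1r LKO livers 50.0 ± 5.20 CPM (SD, n = 4). The genotype difference was a log2 fold change of 0.25 ± 0.12 (SE) with a 95% interval of -0.01 to 0.51 (edgeR, adjusted p = 0.758). It was 0.34 without Control mouse 193 (edgeR, adjusted p = 0.985) and 0.33 without Mc1r LKO mouse 141 (edgeR, adjusted p = 0.899), and in both fits Bcl2l1 met the looser rule. The lowest value of the 8 fits that left out a liver was 0.17, without Control mouse 181. With library size only and all livers it was 0.20, and Bcl2l1 met the rule in neither of these fits. The gene has 9 annotated transcripts, 8 of them protein coding, and the counts cover them together, so the long and short BCL-X isoforms, which act in opposite directions, were not separated.

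Bcl2 itself (chr1:106538178-106714274, minus strand) had a low RNA level in these livers. It drew 28, 31, 33 and 62 counts in Control and 50, 32, 54 and 32 counts in Mc1r LKO livers. These correspond to 1.49, 2.88, 1.72 and 2.53 CPM and to 3.46, 2.08, 2.18 and 1.64 CPM, respectively. The highest liver was Mc1r LKO mouse 141 and the lowest Control mouse 154, and between them the genotypes were interspersed. For 28 counts, the exact 95% Poisson interval, which covers counting error only, runs from 18.6 to 40.5 counts. The log2 fold change of 0.12 ± 0.32 (SE) had a 95% interval of -0.58 to 0.82 (edgeR, adjusted p = 0.965), so changes from 0.668-fold to 1.77-fold lie inside it.

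Because transcripts differ in length, levels of different genes were compared as TPM, which divides counts by exon length before scaling each library to a common total. Mcl1 was the most abundant member with 98.3 ± 5.91 TPM (SD over 8 livers), and it was above the next member, Cdkn1a, in 8 of 8 livers without overlap of their ranges. Cdkn1a followed with 36.3 ± 17.4 TPM and Bax with 32.03 ± 5.602 TPM, and this pair stood in that order in 4 of 8 livers. Bcl2l1 reached 24.01 ± 3.235 TPM and was below Bax in 7 of 8 livers. Bbc3 with 16.0 ± 4.71 TPM, Mdm2 with 15.8 ± 2.24 TPM and Bak1 with 14.6 ± 2.34 TPM were not separated beyond their spread. Bid, at 11.6 ± 2.04 TPM, was below Bak1 in 7 of 8 livers. Pmaip1 with 1.12 ± 0.424 TPM and Bcl2 with 0.588 ± 0.182 TPM closed the order, a step of 10.3-fold below Bid, and Pmaip1 was above Bcl2 in 8 of 8 livers although their ranges overlapped.

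**Figure D2:**
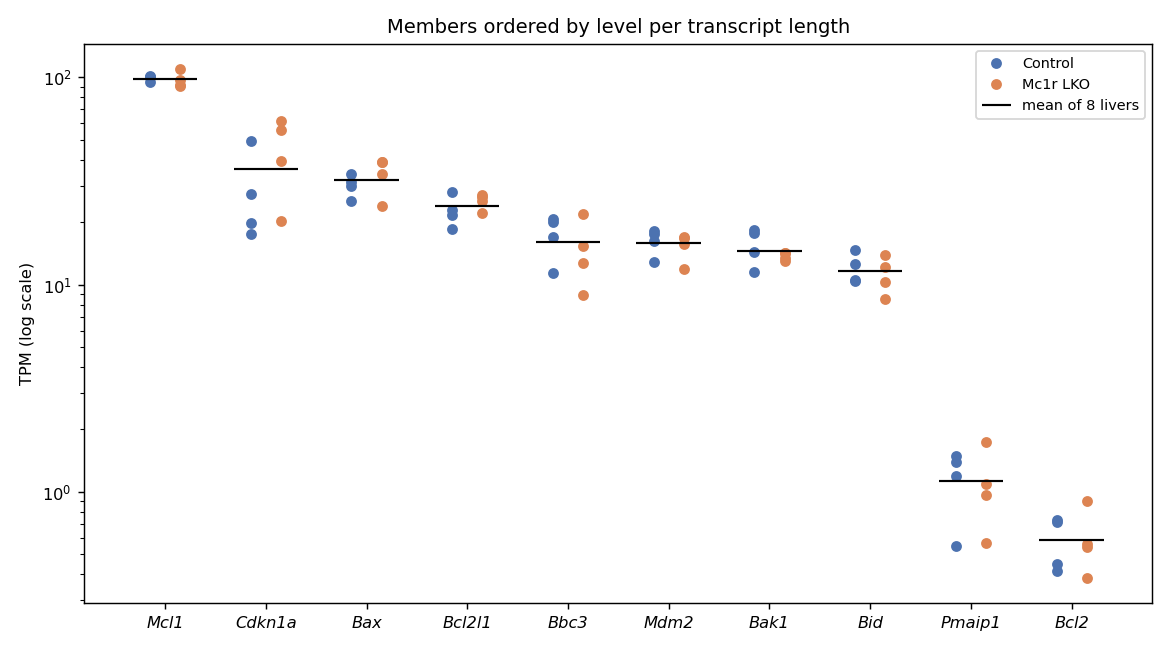
TPM on a log scale (vertical axis) of the 10 genes, ordered by the mean of 8 livers (black lines), with a point for each Control (blue) and Mc1r LKO (orange) liver. Mcl1 lies above all other members, 7 genes lie between 8.56 and 61.2 TPM, and Pmaip1 and Bcl2 lie below 2 TPM.

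Of the summed TPM of the 3 pro-survival members, Mcl1 made up 76.6% to 84.1%, Bcl2l1 15.5% to 22.9% and Bcl2 0.287% to 0.788% across the 8 livers. The mean share of Bcl2l1 was 18.5% in Control and 20.6% in Mc1r LKO livers, and these shares were not tested. On the scale of all 13400 genes tested, the mean TPM of Mcl1 exceeded that of 92.4% of genes, whereas that of Bcl2 exceeded only 6.396%.

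None of the BH3-only transcripts passed the test, and Bbc3 and Pmaip1 were among the more variable members. Bbc3 (chr7:16308393-16318205, plus strand), which encodes PUMA, measured 14.1, 19.0, 17.7 and 9.29 CPM in Control and 13.5, 19.5, 11.5 and 8.79 CPM in Mc1r LKO livers. The highest and the lowest of the 8 values were both from Mc1r LKO mice, 156 and 182. The fitted log2 fold change was -0.17 ± 0.27 (SE) with a 95% interval of -0.77 to 0.43 (edgeR, adjusted p = 0.935), and it ranged from -0.41 without mouse 156 to -0.01 without mouse 182.

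Bid (chr6:120891930-120916853, minus strand), whose protein links death receptors to mitochondria after caspase-8 cleavage, measured 14.5, 19.3, 15.4 and 19.9 CPM in Control and 20.4, 15.3, 18.5 and 14.0 CPM in Mc1r LKO livers. In each genotype a pair of mice lay above 18 CPM and the other pair below 16 CPM. The resulting log2 fold change was -0.02 ± 0.15 (SE) with a 95% interval of -0.36 to 0.32 (edgeR, adjusted p = 0.989), so a change beyond 0.779-fold or 1.25-fold lies outside the interval.

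Pmaip1 (chr18:66458533-66465565, plus strand), which encodes NOXA, a BH3-only protein that binds MCL1, drew 11, 19, 26 and 36 counts in Control and 18, 17, 50 and 14 counts in Mc1r LKO livers. This equals 0.585, 1.77, 1.35 and 1.47 CPM and 1.24, 1.10, 2.02 and 0.715 CPM. The lowest value came from a Control mouse and the highest from an Mc1r LKO mouse. For the liver with 11 counts the exact 95% Poisson interval was 5.49 to 19.7 counts. The log2 fold change was 0.01 ± 0.41 (SE) with a 95% interval of -0.91 to 0.92 (edgeR, adjusted p = 0.998). A change to 0.533-fold or to 1.89-fold could therefore not be told from none at this depth.

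Opposing members were also set against each other within each liver, as the log2 ratio of their levels per length. The ratio of Bax to Bcl2 was 74.9, 47.0, 56.5 and 41.4 in Control and 37.5, 71.9, 69.6 and 61.7 in Mc1r LKO livers. Its log2 mean was 5.74 ± 0.37 (SD, n = 4) in Control and 5.87 ± 0.43 (SD, n = 4) in Mc1r LKO, a difference of 0.12 (two-sided exact permutation test, p = 0.714, adjusted p = 0.886 over 3 ratios). The ratio of Mcl1 to Pmaip1 ranged from 63.4 to 183 in Control and from 52.5 to 193 in Mc1r LKO livers, with a log2 difference of 0.07 (exact permutation test, p = 0.886, adjusted p = 0.886). The smallest p that 4 against 4 livers allow is 0.0286.

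Cdkn1a was the most variable of the 10 genes. It encodes p21, an inhibitor of cyclin-dependent kinases, and lies at chr17:29090976-29100727 on the plus strand. It measured 68.0, 41.7, 29.5 and 23.9 CPM in Control and 30.1, 58.7, 84.4 and 100.5 CPM in Mc1r LKO livers. Mc1r LKO mice 157 and 182 were above all Control mice, Control mouse 154 was above Mc1r LKO mouse 156, and Mc1r LKO mouse 141 lay at the low end of the Control range. The highest liver exceeded the lowest by 4.21-fold. The SD of log2 CPM within a genotype was 0.715, larger than that of 92.5% of all genes tested, for which the median SD was 0.233.

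Cdkn1a averaged 40.8 ± 19.6 CPM (SD, n = 4) across Control and 68.4 ± 30.8 CPM (SD, n = 4) across Mc1r LKO livers. The log2 fold change of 0.75 ± 0.39 (SE) was the largest among the members, and its 95% interval of -0.11 to 1.61, or 0.928-fold to 3.06-fold, included no change (edgeR, adjusted p = 0.774). It depended on single livers. It was 1.13 without Control mouse 154 (edgeR, adjusted p = 0.789), 1.01 without Mc1r LKO mouse 141 (edgeR, adjusted p = 0.899) and 0.52 without Mc1r LKO mouse 182, the library that lay apart on the first principal component. The looser rule was met in the first of these fits and in the second, and not in the third.

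Mdm2 (chr10:117688875-117710758, minus strand), which encodes the ubiquitin ligase that degrades p53 and is itself induced by p53, measured 34.9, 35.5, 38.6 and 25.1 CPM in Control and 25.2, 33.7, 37.0 and 39.3 CPM in Mc1r LKO livers. The lowest values of the genotypes, in Control mouse 193 and Mc1r LKO mouse 141, were nearly equal, and so were the highest. Its log2 fold change was 0.02 ± 0.16 (SE) with a 95% interval of -0.35 to 0.38 (edgeR, adjusted p = 0.992). The ratio of Cdkn1a to Mdm2 per length was 2.79, 1.68, 1.09 and 1.36 in Control and 1.71, 2.50, 3.27 and 3.66 in Mc1r LKO livers. The log2 ratio was higher by 0.72 in Mc1r LKO livers, a difference that did not pass the test (exact permutation test, p = 0.114, adjusted p = 0.343).

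**Figure D3:**
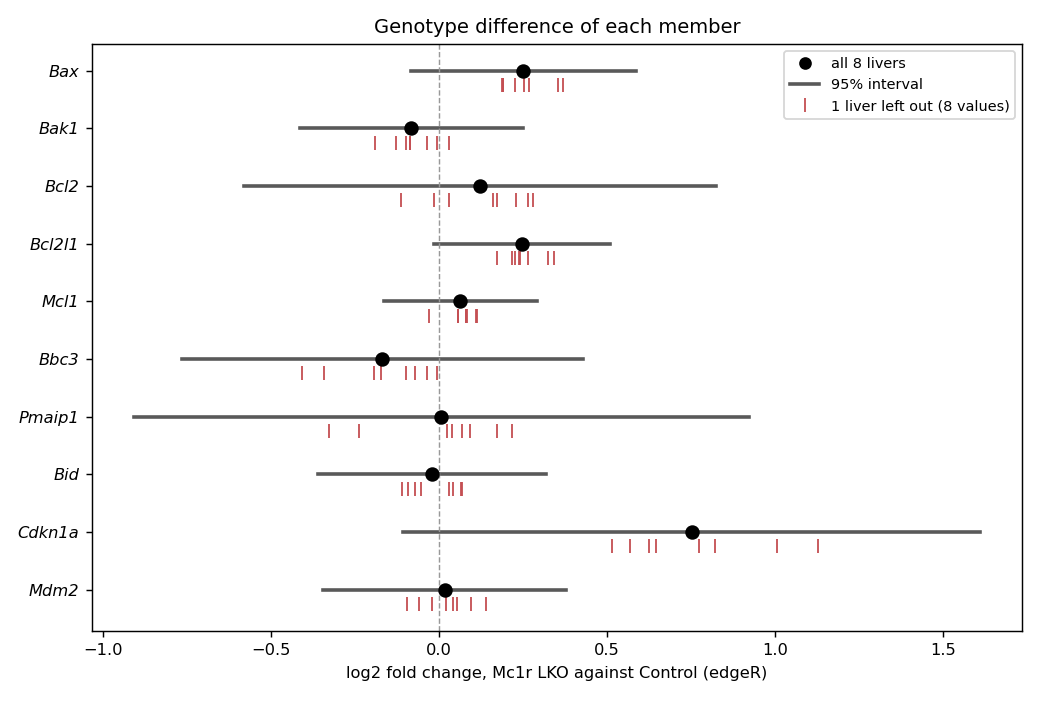
Log2 fold change of Mc1r LKO against Control (horizontal axis) for the 10 genes, with black points for all 8 livers, grey lines for the 95% interval of edgeR's quasi-likelihood fit, and red ticks for the 8 fits that each leave out 1 liver. All 10 intervals include 0, and the ticks of Cdkn1a run from 0.52 to 1.13.

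Because several members are known targets of p53, their promoters were searched for its response element, and the matches are shown to let the sequence of Cdkn1a be compared with those of Bax and Mdm2. RefSeq promoter windows (GRCm38.p6, 250 bases before to 50 bases after a transcript start) were at hand for 9 of the 10 genes, 14 windows in all. The p53 response element was searched as a pair of adjoining 10-base units, with at most 1 mismatch in 20 bases. The element reads the same on both strands, so a single scan covers them. A window upstream of Cdkn1a held a match and the other 13 windows held none, while 0.0883% of all 32851 windows did. The windows of Bax and Mdm2 each held a single 10-base unit without mismatch, as did 8.36% of all windows. Capitals mark the stretch of each match, and all 3 sequences are written 5′ to 3′ on the strand of the gene. In Cdkn1a the capitals include 1 mismatch, the T at position 11 of the 20 bases.
Cdkn1a, chr17:29090868-29090978, plus strand: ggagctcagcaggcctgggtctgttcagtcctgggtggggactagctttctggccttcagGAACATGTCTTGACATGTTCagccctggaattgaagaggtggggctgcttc
Bax, chr7:45467065-45467124, minus strand: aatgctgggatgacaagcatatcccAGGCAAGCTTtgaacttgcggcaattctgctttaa
Mdm2, chr10:117710910-117710969, minus strand: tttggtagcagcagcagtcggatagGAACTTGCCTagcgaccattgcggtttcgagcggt

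The Cdkn1a match (chr17:29090928-29090947) ended 32 bases before the upstream transcript start and 2822 bases before the start of the downstream transcripts at position 29093769. Among the other p53 target genes listed below, 28 had a window, and 3 of them, Ccng1, Gtse1 and Rps27l, held a match by the same rule. Responsive elements of p53 often lie in introns or farther upstream, so these windows leave out many of them. The match describes the sequence, and binding of p53 was not measured.

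The wider pathway was followed in 8 lists of 94 further genes, of which 83 were tested and 4 appear in more than 1 list. By the looser rule, 2 of the 83 were higher in Mc1r LKO livers, Ddit4 and Endog, where 2.64% of all genes were, and 2 were lower, Tnfsf10 and Sulf2, where 2.66% of all genes were. With edgeR 0 of 83 had an adjusted p under 0.05. The median log2 fold change of all genes was -0.01.

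Among the other p53 target genes, 1 of 33 tested was higher and 1 was lower, with a median log2 fold change of -0.06. Ddit4, a stress-induced inhibitor of mTORC1 signalling, measured 11.5, 8.27, 11.1 and 7.71 CPM in Control and 18.4, 30.9, 17.5 and 9.30 CPM in Mc1r LKO livers. Mice 141, 156 and 157 were above all Control livers and mouse 182 was within their range. Its log2 fold change was 0.97 ± 0.31 (SE) with a 95% interval of 0.29 to 1.66 (edgeR, adjusted p = 0.734). It met the looser rule in all 8 fits that left out a liver, where it ranged from 0.64 without mouse 156 to 1.203 without mouse 182. Sulf2, an extracellular heparan sulfatase, had a log2 fold change of -0.42 ± 0.19 (SE) (edgeR, adjusted p = 0.740), which was -0.23 without Control mouse 193. The call at an unadjusted p was lost under limma-voom with all livers and in 7 of the 8 fits that left out a liver. Rps27l, a ribosomal protein gene induced by p53, had an unadjusted p under 0.05 in edgeR with a log2 fold change of 0.20, under the limit of 0.25. Trp53inp1, whose product promotes p53 activity and autophagy, was at 185 CPM in Mc1r LKO mouse 182 and at 69.5 to 110.6 CPM in the other 7 livers.

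In the list of p53 and its regulators, 0 of 12 genes tested met the looser rule, and the median log2 fold change was -0.12. Trp53, the gene for p53, measured 22.3, 23.1, 22.8 and 22.7 CPM in Control and 20.7, 21.3, 19.2 and 21.1 CPM in Mc1r LKO livers. It was the gene of this list whose genotypes did not overlap, all 4 Mc1r LKO livers lying below all 4 Control livers, a pattern shared by the 4.16% of all genes given above. The difference was small and did not pass the test, with a log2 fold change of -0.14 ± 0.08 (SE) and a 95% interval of -0.32 to 0.04 (edgeR, adjusted p = 0.797). The kinase genes Chek1 and Hipk2 had log2 fold changes of -0.51 and -0.36, and the p53 inhibitor Mdm4 of -0.20, and none of the 3 had an unadjusted p under 0.05 in edgeR.

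In the list of apoptosome and caspase genes, 1 of 14 was higher by the looser rule, and the median log2 fold change was 0.02. Endog, a mitochondrial nuclease, averaged 24.2 ± 1.74 CPM (SD, n = 4) across Control and 29.8 ± 5.23 CPM (SD, n = 4) across Mc1r LKO livers, a log2 fold change of 0.30 ± 0.13 (SE) (edgeR, adjusted p = 0.735). The call was lost under limma-voom, with library size only and in 4 of the 8 fits without 1 liver. Casp6, an executioner caspase, had a log2 fold change of 0.34 (edgeR, adjusted p = 0.745) and did not meet the looser rule in this fit. Casp6 met the rule under DESeq2, under limma-voom, without a filter beyond 1 count and with the residual principal component. It also did so without Control mouse 159, Control mouse 193 or Mc1r LKO mouse 182, and not in the other settings. Casp8, the initiator caspase of death receptors, had a log2 fold change of 0.14. The caspase inhibitors had 0 of 6 genes past the rule and a median of -0.15, with Cflar at -0.15, Xiap at -0.14, Birc3 at -0.19 and Birc5 at -0.44.

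The death receptors and adaptors had 1 of 7 tested genes lower, and a median log2 fold change of -0.03. Tnfsf10, which encodes the death ligand TRAIL, measured 3.77, 5.48, 5.58 and 6.52 CPM in Control and 2.97, 4.03, 3.63 and 2.96 CPM in Mc1r LKO livers. Only Control mouse 154 fell among the Mc1r LKO values. The genotype difference was a log2 fold change of -0.65 ± 0.21 (SE) with a 95% interval of -1.13 to -0.17 (edgeR, adjusted p = 0.734), and it stayed between -0.78 and -0.53 when each liver was left out. The adaptors Fadd, Tradd and Ripk1 had log2 fold changes of 0.13, 0.06 and -0.09.

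The other members of the BCL2 family gave 0 calls. Of the 10 other pro-apoptotic genes 9 were tested, with a median log2 fold change of 0.04, and the mitophagy receptor gene Bnip3 had the smallest p of the list at a log2 fold change of 0.23. Bad, a BH3-only gene regulated by growth factor signalling, had a log2 fold change of 0.20, and the BH3-only genes Bik and Bmf had values of -0.48 and -0.63. Of the 5 other pro-survival genes 2 were tested, Bcl2l2 at -0.07 and Bcl2a1b at -0.16, and reads of the near-identical Bcl2a1 copies cannot be assigned with certainty. Among the other inhibitors of cyclin-dependent kinases, 0 of 4 tested genes met the rule, with Cdkn1b at -0.12, Cdkn1c at -0.02, Cdkn2c at 0.17 and Cdkn2d at -0.12. Cdkn2a and Cdkn2b were under the filter on low counts with at most 15 counts in a liver.

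**Figure D4:**
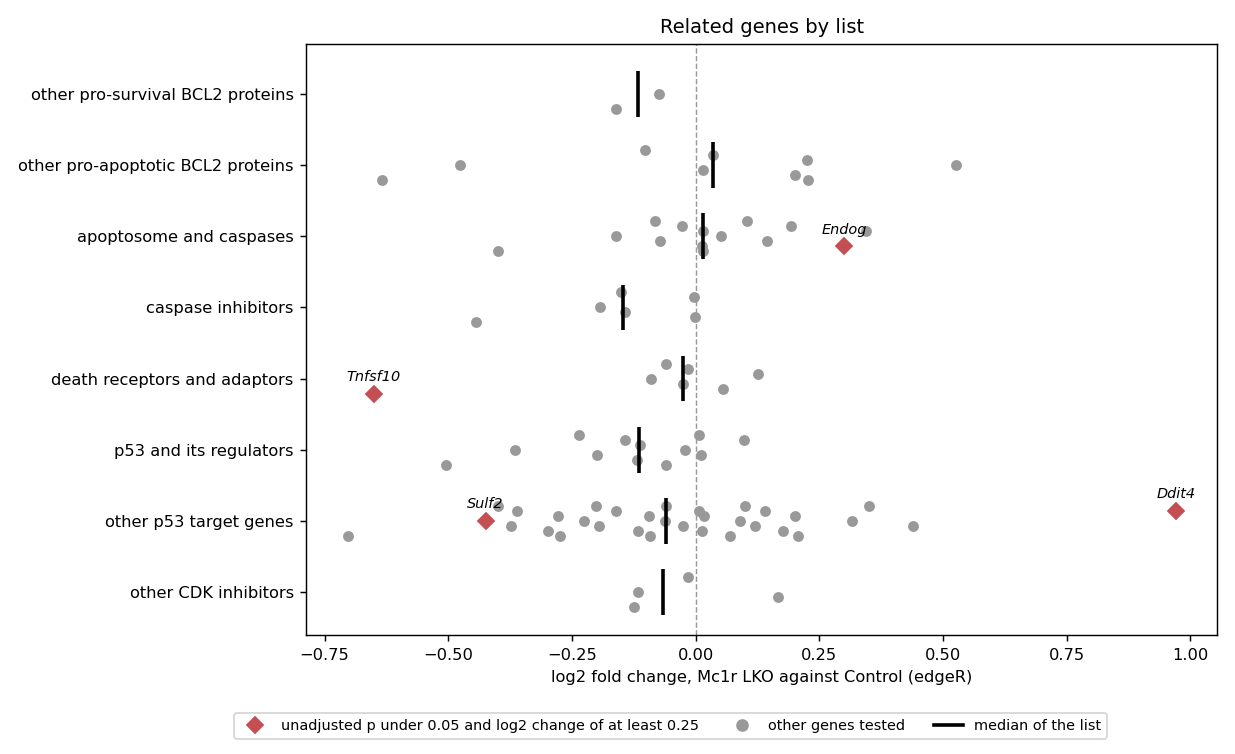
Log2 fold change of Mc1r LKO against Control (horizontal axis) for the tested genes of the 8 related lists (rows), with red diamonds for the 4 genes past the looser rule, grey points for the other genes and black bars for list medians. The medians lie between -0.15 and 0.04.

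Across the 8 livers, the genes most like each member were those with the highest Pearson correlation of log2 CPM among genes with a mean of at least 1 CPM. These are picked as the top of all such genes and share libraries and depth with the member, so they are a description without a p. Cdkn1a was most like Cib2 (r = 0.976, Spearman's rho = 0.952), Nudt5 (r = 0.969, rho = 0.929) and Trf, the gene for transferrin (r = 0.954, rho = 1), and without Control mouse 193 and Mc1r LKO mouse 182, the livers farthest from its median, r was 0.958, 0.965 and 0.964. Mcl1 was most like Serpinf2, Klf9 and Larp4b, with r of 0.984, 0.981 and 0.979. Without Mc1r LKO mice 141 and 182 these fell to 0.837, 0.849 and 0.806, so the high values rest in part on those livers. Bax was most like Alkbh6, Smdt1 and Iscu, with r of 0.9751, 0.9729 and 0.964 and, without Mc1r LKO mice 156 and 157, of 0.948, 0.945 and 0.949. Bcl2l1 had its closest match in Susd6 (r = 0.922, rho = 0.905), with an r of 0.827 without Control mouse 181 and Mc1r LKO mouse 182.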

How the data were processed

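The authors trimmed the reads with Trim Galore 0.6.6, aligned them with STAR 2.7.6a and counted them per gene with featureCounts of Subread 2.0.1, per the labels and the file headers. The headers name the Ensembl GRCm38 annotation, release 102, with read pairs and reverse-strand counting, and the deposited values are raw counts. From these, genes were filtered with filterByExpr (minimum count 10, minimum total 15), scaled by TMM and tested with edgeR 4.0.16 quasi-likelihood (R 4.3.3), Mc1r LKO against Control, 4 against 4, over all 13400 genes with Benjamini-Hochberg adjustment. The alternatives were DESeq2 1.42.0, limma-voom (limma 3.58.1), RLE and library size scaling, other filters, robust dispersion, a residual principal component and leaving out each liver.

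TPM came from counts and exon lengths of the tables, and marker sums from CPM by library size. Log2 CPM used a prior count of 2. The 10 members and all lists were chosen with earlier results of these data known. Text names all members, Trp53, up to 4 genes per list with the smallest p, and genes most like members described in depth. A gene that this rule also covered is not reported here. All symbols matched 1 gene. The livers held 10773151 to 24763375 counts, the biological coefficient of variation was 0.209, and the floor of 3 counts equals 0.121 to 0.279 CPM. Replicates are separate mice. The main edgeR fit was tested on simulated data, and the alternatives were not. No values of the authors' own comparisons were used.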

Additional observations from a re-analysis of the deposited data

Results flagged for a closer look

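Of 86 groups of 4 livers checked, over the members, the 3 ratios and the named related genes, 1 held a liver far from the other 3, whereas chance flags about 1 in 20 such groups. Trp53inp1 was at 185 CPM in Mc1r LKO mouse 182, against 88.3 to 101.8 CPM in the other Mc1r LKO livers. No group of a member or a ratio was marked in this way.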

How the results depend on the processing

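The count of members with an adjusted p under 0.05 was 0 in all 16 alternatives, with Bcl2 and Pmaip1 given no adjusted p by DESeq2. The count under the looser rule, 0 with all livers, was 2 without a filter beyond 1 count (Bcl2l1 and Cdkn1a), where 4.73% of all genes met it, and 0 to 2 when each liver was left out, where 4.45% to 6.81% did. For Bax, the residual principal component gave a log2 fold change of 0.24 with an unadjusted p under 0.05 (edgeR), under the limit of 0.25. Signs turned for members near 0. Pmaip1 was -0.027 with library size only and -0.025 with the residual principal component, and Mdm2 was -0.028 with library size only. With each liver left out, the log2 fold change ranged from -0.19 to 0.028 for Bak1, -0.11 to 0.28 for Bcl2, -0.031 to 0.11 for Mcl1, -0.33 to 0.22 for Pmaip1, -0.11 to 0.068 for Bid and -0.096 to 0.14 for Mdm2. The log2 ratio difference ranged from -0.001 to 0.34 for Bax to Bcl2, from -0.27 to 0.40 for Mcl1 to Pmaip1 and from 0.53 to 0.97 for Cdkn1a to Mdm2. The count of related genes past the looser rule, 4 with all livers, was 7 with the residual principal component, or 8.43% of 83 against 8.39% of all genes, and 3 to 8 when a liver was left out, 8 without Control mouse 159, or 9.64% against 5.65% of all genes; these alternatives were chosen after seeing the data. The cause of these shifts was not tested. No paired analysis was possible because the labels name no litter or cage by which mice could be paired. Counts of 11 to 62 per liver limit Bcl2 and Pmaip1.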

Other observations

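Over all 45 pairs of members, an analysis added after seeing the data, Bcl2 and Bid had the highest correlation of log2 CPM across the 8 livers (Pearson's r = 0.914, exact permutation p = 0.00119, adjusted p = 0.0536; Spearman's rho = 0.929, exact permutation p = 0.00223, adjusted p = 0.100). It was 0.934 within genotypes and 0.894 without Control mouse 154 and Mc1r LKO mouse 141, the livers farthest from the median of Bcl2. The relation did not pass the adjustment over 45 pairs, and Bcl2 rests on 28 to 62 counts per liver. Cdkn1a and Mdm2, both targets of p53, had an r of 0.672 (exact permutation p = 0.0753, adjusted p = 0.565) and a rho of 0.571 (exact permutation p = 0.151, adjusted p = 0.680), and the r was 0.383 without Control mouse 193 and Mc1r LKO mouse 182. In all, 0 of 45 pairs had an adjusted p under 0.05 and 4 had an unadjusted p under 0.05.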
